A study of Mus musculus with 2 samples.

Results

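The 9 genes described here, out of 32285 features in the deposited matrices, encode the LIM homeodomain factors Lhx1, Lhx5, Lhx9, Lmx1a, Lmx1b and Isl1 and the paired-box factors Pax2, Pax5 and Pax8. They were taken by symbol, and each symbol matched 1 row. The study profiled transcripts in the locus coeruleus of the mouse, the pontine nucleus of noradrenergic neurons, cell by cell or nucleus by nucleus, with droplet libraries of 10x Genomics in which a unique molecular identifier (UMI) marks each captured transcript. Library 1 (batch 1) and library 2 (batch 2) both came from C57BL/6N wild-type animals, males and females, 3 to 4 weeks old. This is 1 group with n = 2, so every comparison runs between neuron classes inside each library. The number of mice behind a library and any pooling are not given in the sources used here, and the labels describe both a papain and methanol protocol for cells and a sorted-nuclei protocol without assigning them to libraries. Library and batch are the same split, so their effects cannot be told apart. Each barcode is called a cell, whichever of the protocols it came from.

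LIM homeodomain factors pair a DNA-binding homeodomain with LIM domains that recruit Ldb cofactors, and paired-box factors bind DNA through a paired domain. In the developing hindbrain and spinal cord, neighbouring progenitor domains give rise to neurons that carry different combinations of these factors, and the combinations go with the transmitter a neuron will use. Lhx1, Lhx5, Pax2 and Pax8 are textbook factors of inhibitory interneurons, Lmx1b and Lhx9 of excitatory ones, Isl1 of sensory and motor neurons, and Pax2, Pax5 and Pax8 also act together in the midbrain-hindbrain region of the embryo.

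Neuron classes were defined by UMIs of marker genes in each cell, and none of the 9 genes was among those markers. Of 3100 barcodes, 2971 cells were kept (294 in library 1 and 2677 in library 2) and 1361 were neurons by 10 pan-neuronal markers (199 and 1162). Sensory neurons (11 and 48 cells) carried at least 2 of the markers Pou4f1, Prph, Piezo2, Avil, Runx3 and Whrn, which mark the mesencephalic trigeminal neurons that lie beside the nucleus. Inhibitory neurons (27 and 96) carried at least 2 of Gad1, Gad2, Slc32a1 and Slc6a5, noradrenergic neurons (13 and 83) at least 2 of Dbh, Th, Slc6a2 and Slc18a2, and excitatory neurons (73 and 215) the vesicular glutamate transporter gene Slc17a6. Another 39 and 683 neurons passed no transmitter gate and are called unassigned. A further 16 markers were kept out of the gates. All but Ret (sensory), Slc6a9 (inhibitory), Nrn1 and Slc17a8 (both excitatory) were highest in their own class of these 4 in both libraries. The sensory marker Nefh stood at 1428 and 1871 CPM (UMIs of a gene per 1000000 UMIs of the class) in sensory neurons. In excitatory neurons Nefh stood at 46.1 and 55.5 CPM. Of the excitatory markers only Cbln2 was highest there (64.6 and 52.3 CPM). Nrn1 stood at 96.2 and 137 CPM in sensory neurons, against 89.8 and 97.1 CPM in excitatory neurons. The inhibitory marker Nxph1 stood at 371 and 581 CPM in inhibitory neurons, against 348 and 324 CPM in excitatory neurons.

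Depth differed between libraries and between classes. Library 1 held 5600693 UMIs in 304 barcodes and library 2 held 6895380 in 2796, with a median of 11010 and 1517 UMIs per barcode, and no barcode was in both. Median UMIs per cell in libraries 1 and 2 were 60464 and 10644.5 in sensory, 14537 and 3136.5 in inhibitory, 80143 and 6465 in noradrenergic, 16875 and 3551 in excitatory and 11092 and 1851 in unassigned neurons, against 9819 and 1441 in oligodendrocytes, which should lack these factors. The 9 genes gave 1946 UMIs in all, of which 1872 lay in neurons, and oligodendrocytes (39 and 717 cells) held 8 in each library. Since shares of cells with a UMI move with depth, the levels in CPM, taken over all UMIs of a class, are the main measure. Intervals in brackets are exact 95% intervals, cover counting error only and treat UMIs of 1 cell as independent.

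**Figure D1:**
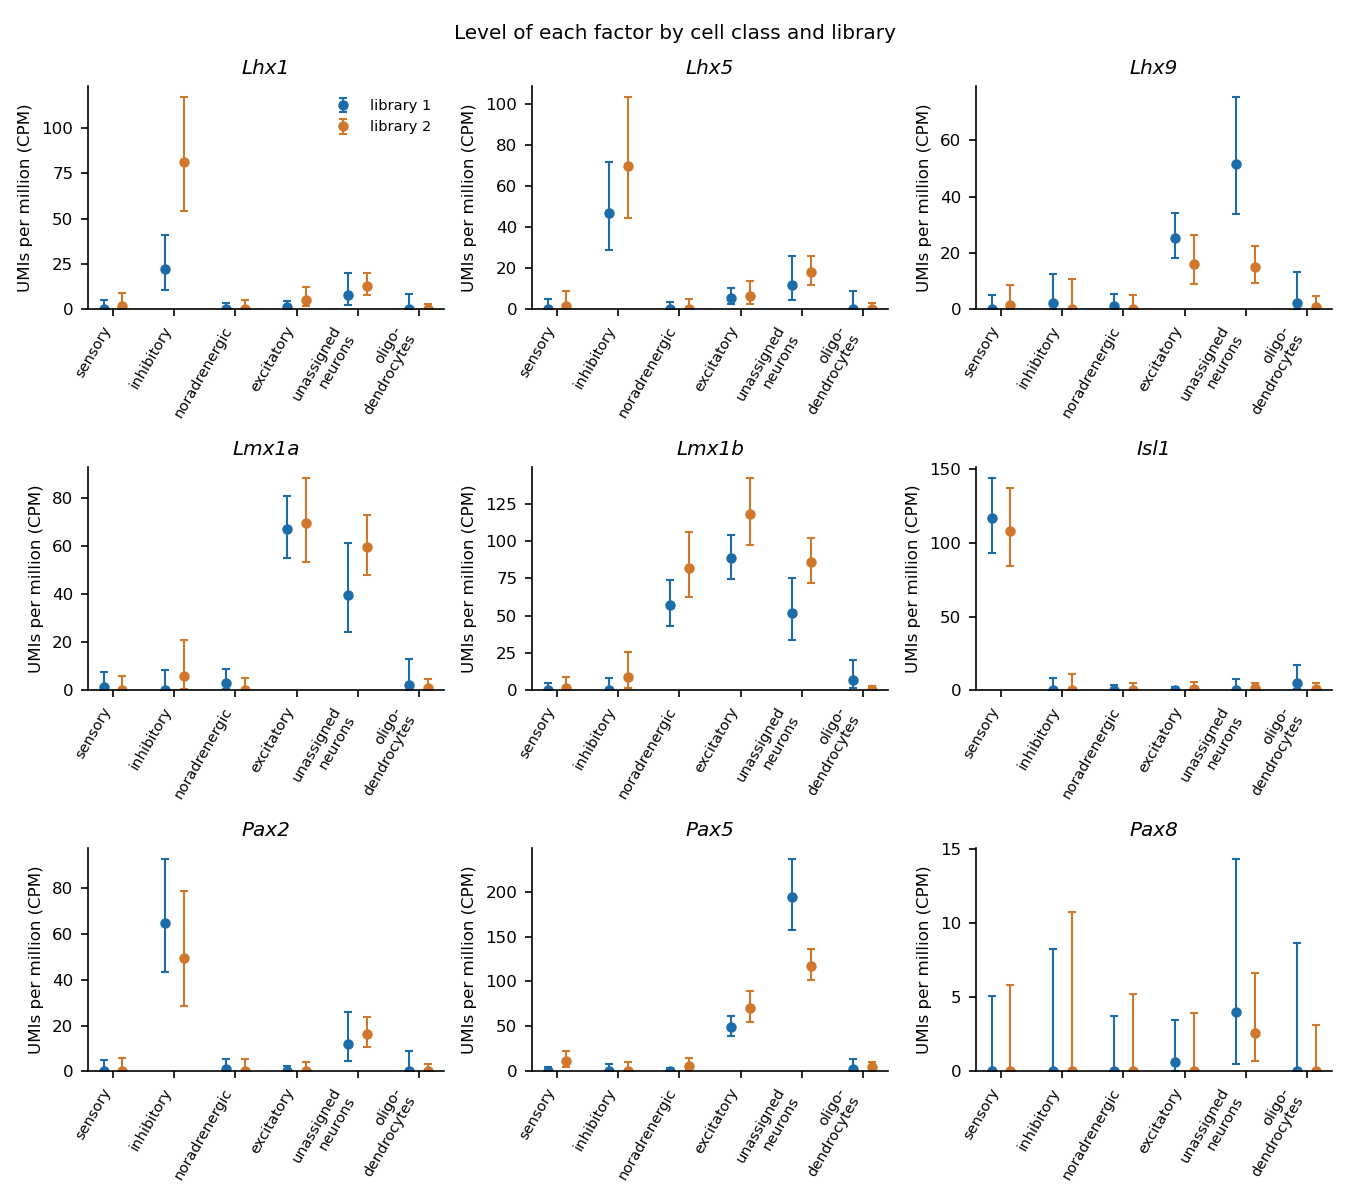
Level of each of the 9 genes in CPM (linear axis) in 6 cell classes, 1 point per library with its exact 95% Poisson interval. Isl1 stands at 117 and 108 CPM in sensory neurons, Lhx1, Lhx5 and Pax2 are highest in the inhibitory class of those drawn, Lmx1a and Lmx1b in the excitatory class, and Lhx9 and Pax5 in excitatory and unassigned neurons.

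The inhibitory class carried Lhx1, Lhx5 and Pax2. Lhx5 (chromosome 5, 120431699 to 120441223, plus strand, GENCODE M21 on GRCm38) stood at 46.9 CPM (21 UMIs) in library 1 and 69.7 CPM (24 UMIs) in library 2 in inhibitory neurons, against 5.54 and 6.40 CPM in excitatory neurons. The groups did not overlap, and the log2 fold was 3.23 ± 0.51 (SE; adjusted p = 0.00097, higher in 2 of 2 libraries). Every adjusted p is from edgeR's quasi-likelihood test on class sums, with Benjamini-Hochberg adjustment over all genes tested and the library as a block. With n = 2, the spread behind it is how unevenly class differences repeat between these libraries, which may be technical. Lhx1 lies on the minus strand of chromosome 11 (84518284 to 84525535). It reached 22.3 and 81.3 CPM in inhibitory neurons (10 and 28 UMIs), against 1.23 and 5.33 CPM in excitatory neurons (2 and 5 UMIs). Its inhibitory level was the less even of the pair between libraries, and the log2 fold of 3.95 ± 0.63 passed (adjusted p = 0.00097).

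Pax2 (chromosome 19, 44756045 to 44837871, plus strand) gave 29 and 17 UMIs in inhibitory neurons, 64.7 and 49.3 CPM, and no UMI in any excitatory or sensory neuron of either library. Set against a floor of 3 UMIs over both libraries, it was at least 49.6-fold higher in inhibitory than in excitatory neurons (adjusted p = 3.69e-05). Among all 11 classes with at least 5 cells in both libraries, Lhx5 and Pax2 were highest in inhibitory neurons, followed by unassigned neurons (Lhx5 11.9 and 18.1 CPM, Pax2 11.9 and 16.2 CPM), without overlap. Pax8 (chromosome 2, 24420560 to 24475599, minus strand), the close relative of Pax2 named beside it in hindbrain interneurons, had only 7 UMIs in all neurons and none in the inhibitory class, where the exact 95% upper limits for a count of 0 are 8.23 and 10.7 CPM. It was too scarce to be tested in any comparison.

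Of the 8 genes tested between inhibitory and excitatory neurons, 3 were higher and 3 lower in the inhibitory class. Over all 9445 genes, 1.75% were called, 0.762% higher and 0.985% lower. Without the library block 87 rather than 165 genes were called, and the calls of the 6 factors stayed on the same side of the threshold. Lmx1a, Lmx1b and Pax5 were the lower genes and are described next. Lhx9 gave 1 UMI in inhibitory neurons against 56 in excitatory neurons, a ratio of 0.0578 of the pooled levels (0.00144 to 0.335), and did not pass (adjusted p = 0.0574). It was called with the 2 classes alone (adjusted p = 0.000679) and without the low-count filter (adjusted p = 0.00368). Isl1 had no UMI in inhibitory and 1 in excitatory neurons, so no fold is given. DESeq2 gave the same directions but did not call Pax2 (adjusted p = 1), Pax5 (adjusted p = 1) or Lmx1a (adjusted p = 0.639) between these classes.

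The excitatory class carried the closely related pair Lmx1a and Lmx1b. Both are known from roof plate, midbrain dopamine neurons and hindbrain neurons, and Lmx1b also from serotonergic neurons. Lmx1b lies on the minus strand of chromosome 2 (33560965 to 33640511). It reached 88.6 and 118 CPM in excitatory neurons (144 and 111 UMIs). Lmx1a (chromosome 1, 167689237 to 167848741, plus strand) stood at 67.1 and 69.3 CPM (109 and 65 UMIs). Inhibitory neurons had 0 and 3 UMIs of Lmx1b, the 3 from 1 cell, and 0 and 2 of Lmx1a. The ratio of inhibitory to excitatory pooled levels was 0.0380 for Lmx1b (0.00779 to 0.112; adjusted p = 1.29e-05) and 0.0372 for Lmx1a (0.00447 to 0.136; adjusted p = 0.000304). Sensory neurons likewise held 1 UMI of each, against 255 of Lmx1b and 174 of Lmx1a in excitatory neurons, although the sensory cells were much deeper. The ratio of sensory to excitatory levels was 0.00737 for Lmx1b (0.000186 to 0.0414; adjusted p = 1.25e-08) and 0.0108 for Lmx1a (0.000272 to 0.0610; adjusted p = 5.21e-07).

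The 2 Lmx1 genes were often found in the same cells, so their promoters are shown, from 250 bases before to 50 after the RefSeq transcript start (GRCm38.p6), 5′ to 3′ in the direction of the gene. Capitals mark a match on either strand to the GC box core GGGCGG, to the CCAAT box, to the letters TAATTA that many homeodomain factors recognise, to the TATA box as TATAAA, or to GTCACGC, which is part of paired-domain sites.
Lmx1a promoter, chr1:167689308-167689607, plus strand: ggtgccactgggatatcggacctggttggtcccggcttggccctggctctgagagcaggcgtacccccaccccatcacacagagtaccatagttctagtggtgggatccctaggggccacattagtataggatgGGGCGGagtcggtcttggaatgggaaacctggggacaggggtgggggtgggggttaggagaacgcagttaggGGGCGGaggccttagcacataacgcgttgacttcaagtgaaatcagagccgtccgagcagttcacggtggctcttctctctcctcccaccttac
Lmx1b promoter, chr2:33641049-33641348, minus strand: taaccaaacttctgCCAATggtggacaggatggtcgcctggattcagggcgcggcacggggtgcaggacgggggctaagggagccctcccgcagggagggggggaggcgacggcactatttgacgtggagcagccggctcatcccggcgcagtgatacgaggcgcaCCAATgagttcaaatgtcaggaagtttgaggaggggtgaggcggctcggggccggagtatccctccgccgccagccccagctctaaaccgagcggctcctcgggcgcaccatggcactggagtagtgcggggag
The Lmx1a window held 2 GGGCGG matches and the Lmx1b window 2 CCAAT matches, so the windows shared none of the 5 motifs. These letters are common, since 35.7% of 32851 promoters of this length hold GGGCGG and 37.4% hold CCAAT. The homeodomain, TATA and paired-domain letters are in 5.29%, 13.6% and 2.09% of promoters, and none of them is in these windows. Their G and C content was 59.3% for Lmx1a and 65.7% for Lmx1b, against a median of 52.7% over all promoters.

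Lhx9 and Pax5 were also found in the excitatory class, though both were highest in unassigned neurons by mean level. Lhx9 (chromosome 1, 138825186 to 138848577, minus strand) is known from dorsal excitatory interneurons, and Pax5 (chromosome 4, 44524757 to 44710487, minus strand) from the midbrain-hindbrain boundary and from B cells. Pax5 stood at 49.8 and 70.4 CPM in excitatory neurons (81 and 66 UMIs) and had no UMI in inhibitory neurons, in which it was at least 15.2-fold lower (adjusted p = 0.000746). The count that bounds Pax5 depends on the gate: when 1 inhibitory marker at 100 CPM was enough for the inhibitory class, a setting added after the data were seen, the log2 fold was -1.46 and was not called (adjusted p = 0.139). Lhx9 stood at 25.2 and 16.0 CPM in excitatory neurons (41 and 15 UMIs). Sensory neurons held 1 UMI of Lhx9, 0.0335 of the excitatory level (0.000835 to 0.195; adjusted p = 0.000612). Pax5 was 11.9-fold lower in sensory than in excitatory neurons (log2 fold -3.58 ± 0.57, SE; adjusted p = 5.23e-05), with 0 and 7 UMIs in sensory neurons, and was not called by DESeq2 (adjusted p = 0.352).

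Both genes were higher still in the unassigned neurons of library 1. Pax5 stood at 194 and 118 CPM there (98 and 182 UMIs), above the 49.8 and 70.4 CPM of excitatory neurons without overlap. Lhx9 stood at 51.5 and 14.9 CPM in unassigned neurons (26 and 23 UMIs), which overlapped the excitatory range of 25.2 and 16.0 CPM. Neither difference was tested. The unassigned class passed no transmitter gate, so the transmitter of its Pax5 and Lhx9 cells is not known. Slc17a6 had a UMI in 8 of 18 and 0 of 93 Pax5 cells, and without Pax5 in 9 of 21 and 2 of 590. Lhx9 cells had it in 4 of 10 and 1 of 21, and cells without Lhx9 in 13 of 29 and 1 of 662. The gate leaves few such cells in the shallower library 2. An inhibitory marker had a UMI in 4 and 15 Pax5 cells and in 1 and 3 Lhx9 cells. The promoters of the 2 genes are shown in the same way, since they too shared cells.
Lhx9 promoter, chr1:138842395-138842694, minus strand: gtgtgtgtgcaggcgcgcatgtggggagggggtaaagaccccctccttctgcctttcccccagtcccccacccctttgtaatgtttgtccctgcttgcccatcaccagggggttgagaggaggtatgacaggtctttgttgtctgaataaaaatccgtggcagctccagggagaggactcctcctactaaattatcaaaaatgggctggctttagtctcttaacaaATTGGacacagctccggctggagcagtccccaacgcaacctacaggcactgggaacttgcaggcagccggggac
Pax5 promoter, chr4:44710645-44710944, minus strand: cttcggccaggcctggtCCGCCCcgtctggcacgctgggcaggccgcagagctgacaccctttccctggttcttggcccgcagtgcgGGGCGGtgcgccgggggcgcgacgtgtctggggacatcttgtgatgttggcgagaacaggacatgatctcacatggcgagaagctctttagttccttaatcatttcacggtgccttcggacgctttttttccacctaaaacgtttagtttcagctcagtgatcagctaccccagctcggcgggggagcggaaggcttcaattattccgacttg
The Lhx9 window held 1 CCAAT match, the Pax5 window 2 GGGCGG matches, and neither held the other 3 sets of letters. The Lhx9 window lies inside the annotated gene, which begins at 138848577 on the minus strand, so it belongs to an internal transcript start. The Lmx1a window also lies inside its annotated gene, which begins at 167689237 on the plus strand. The Lmx1b and Pax5 windows lie wholly upstream of their annotated genes, which begin at 33640511 and 44710487 on the minus strand. Which start these neurons use was not tested. Of the 9 genes, 8 had a promoter in the RefSeq table and Lhx5 is named only.

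**Figure D2:**
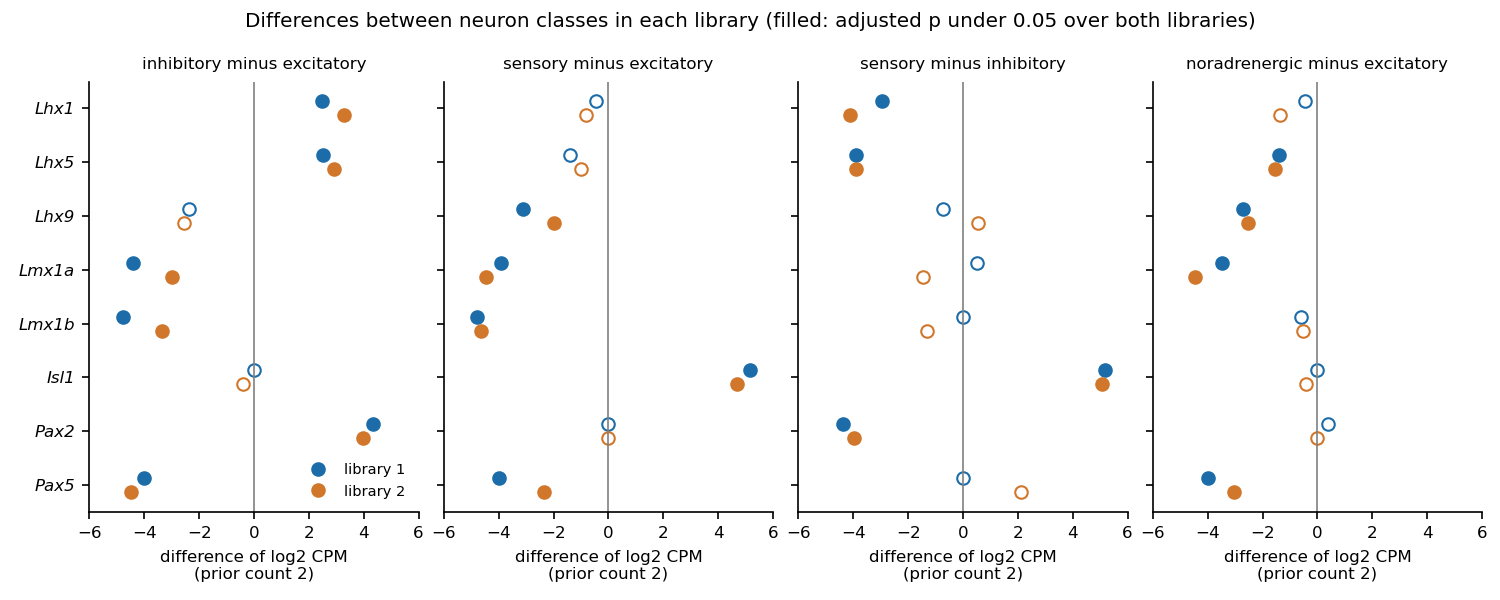
Difference of log2 CPM between 2 neuron classes (prior count of 2 UMIs, linear axis) for the 8 genes tested, 1 point per library; filled points passed the adjusted threshold of 0.05 over both libraries. The filled points of each gene lie on the same side of 0 in both libraries in all 4 comparisons.

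Isl1 (minus strand of chromosome 13, 116298281 to 116309689), which sensory ganglion neurons are known to keep after development, was the factor of the sensory class. It stood at 117 CPM (85 UMIs) and 108 CPM (69 UMIs) in sensory neurons of libraries 1 and 2. Excitatory neurons held 0 and 1 UMI and inhibitory neurons none, and the next highest class was the oligodendrocytes at 4.70 and 0.843 CPM. The sensory level was 289 times the excitatory level (51.2 to 11500; adjusted p = 4.91e-09) and at least 29.8-fold higher than the inhibitory level against a floor of 3 UMIs (adjusted p = 4.48e-07). All 11 sensory cells of library 1 carried Isl1, with 2 to 20 UMIs per cell and a median of 6. In library 2 it was detected in 23 of 48 (47.9%, 33.3 to 62.8). The oligodendrocyte shares were 2 of 39 (5.13%) and 1 of 717 (0.139%), at median depths of 9819 and 1441 UMIs. With each cell thinned to 2000 UMIs, the sensory shares were 9.09% and 10.6%, against 0 of 39 and 1 of 199 oligodendrocytes (0.503%).

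The 48 sensory cells of library 2 were not alike. The 36 with at least 3 sensory markers (median 13873 UMIs) held all 69 Isl1 UMIs, and 23 of them carried the gene. The 12 with exactly 2 markers (median 3495.5 UMIs) held no Isl1 UMI and all 7 Pax5 UMIs of the class. With stricter gates (3 markers of a list, and 2 UMIs of Slc17a6), Isl1 was again called in sensory against excitatory neurons (adjusted p = 8.43e-10). Summed markers of astrocytes stood at 425 and 485 CPM in sensory neurons, against 33.5 and 92.9 in inhibitory and 31.4 and 34.1 in excitatory neurons. Of the 6 markers, 2 and 5 had a UMI in sensory neurons, and the transporter gene Slc4a4 gave 421 and 473 CPM of these sums. Gja1 was at 0 in both libraries there, and Isl1 was at 0 in astrocytes.

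Of the 8 genes tested in sensory against excitatory neurons, 1 was higher and 4 were lower, where 37.3% of 9445 genes were called (18.4% higher and 18.9% lower). In sensory against inhibitory neurons 1 was higher and 3 were lower, beside 31.2% called (15.8% higher and 15.4% lower). With so many genes called, nothing is read from the share of factors called. Lhx1 and Lhx5 had 1 UMI each in sensory neurons, ratios of 0.0153 (0.000377 to 0.0905) and 0.0129 (0.000320 to 0.0757) to the inhibitory level (adjusted p = 4.80e-05 and 1.23e-05). Pax2 was at least 26.4-fold lower (adjusted p = 1.58e-05; DESeq2, 0.282). Pax5 in sensory against inhibitory neurons did not pass (adjusted p = 0.142). Under the looser inhibitory gate the direction turned, with a log2 fold of -2.16 (adjusted p = 0.0229). Lhx5 in sensory against excitatory neurons did not pass (adjusted p = 0.0539), with 1 UMI against 15. It was called without doublet removal (adjusted p = 0.0354), without the low-count filter (adjusted p = 0.0410) and with the looser inhibitory gate (adjusted p = 0.0132).

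Noradrenergic neurons carried Lmx1b and little else of the set. Lmx1b stood at 57.1 and 82.3 CPM (57 and 58 UMIs), against 88.6 and 118 CPM in excitatory neurons. The levels did not overlap, but the log2 fold of -0.64 ± 0.24 (SE), lower in 2 of 2 libraries, did not pass (adjusted p = 0.0579). Fitted on these 2 classes alone, the fold of -0.65 was called (adjusted p = 0.00764). Lmx1a, its partner in excitatory neurons, gave 3 and 0 UMIs in noradrenergic neurons, 0.0259 of the excitatory level (0.00530 to 0.0771; adjusted p = 6.45e-07). Pax5 was 24.9-fold lower (log2 fold -4.64 ± 0.62, adjusted p = 1.40e-05; DESeq2, 0.335), Lhx9 stood at 0.0269 of the excitatory level (0.000668 to 0.156; adjusted p = 0.000393) and Lhx5 was at least 3.32-fold lower (adjusted p = 0.0109). These 4 lower genes and 0 higher ones among 8 tested stand beside 26.6% called (14.1% higher and 12.5% lower). Isl1 and Lhx1 had no UMI in noradrenergic neurons. The noradrenergic gate markers summed to 8173 and 6017 CPM in noradrenergic neurons and 52.9 and 40.5 CPM in excitatory neurons. The gate itself sets this difference, so it is no separate check of the classes.

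Within the inhibitory class, cells with a UMI of the glycine transporter gene Slc6a5 were set against the rest. Pax2 stood at 107 and 85.8 CPM in the Slc6a5-positive cells (21 and 9 UMIs), against 31.7 and 33.4 CPM in the others (8 and 8 UMIs). The levels did not overlap, but the log2 fold of 1.59 ± 0.41 (SE), higher in 2 of 2 libraries, did not pass the adjustment (unadjusted p = 0.00552, adjusted p = 0.608). Lhx1 stood at 25.6 and 124 CPM against 19.8 and 62.6 (log2 fold 0.79 ± 0.46, adjusted p = 0.776), and Lhx5 at 40.9 and 76.3 CPM against 51.5 and 66.8 (log2 fold -0.05 ± 0.42, adjusted p = 0.995). Of 3 factors tested, 0 passed, beside 0.0482% of 4152 genes (0.0241% higher and 0.0241% lower). With edgeR 2 genes passed, 287 had an unadjusted p under 0.05, and DESeq2 called 1. The 2 were Slc6a5 itself and Sox2ot, a long noncoding RNA gene that overlaps Sox2.

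Single cells showed the sets within classes. Inhibitory neurons carried Lhx1, Lhx5 or Pax2 in 20 of 27 cells (74.1%, 53.7 to 88.9) and 42 of 96 (43.8%, 33.6 to 54.3), against 5 of 73 (6.85%, 2.26 to 15.3) and 11 of 215 (5.12%, 2.58 to 8.97) of excitatory neurons and 0 of 39 and 0 of 717 oligodendrocytes. Excitatory neurons carried Lmx1a or Lmx1b in 31 of 73 cells (42.5%, 31.0 to 54.6) and 72 of 215 (33.5%, 27.2 to 40.2), and Lhx9 or Pax5 in 22 (30.1%, 19.9 to 42.0) and 41 (19.1%, 14.0 to 25.0). In oligodendrocytes those shares were 3 of 39 (7.69%) and 1 of 717 (0.139%) for the Lmx1 genes, and 1 (2.56%) and 6 (0.837%) for Lhx9 or Pax5. Inhibitory neurons had the Lmx1 genes in 0 of 27 and 2 of 96 cells. Noradrenergic neurons had them in 12 of 13 cells (92.3%, 64.0 to 99.8) and 30 of 83 (36.1%, 25.9 to 47.4), the deepest cells of the 4 classes in library 1. No UMI of any of the 9 genes was seen in 21 of 73 and 100 of 215 excitatory and in 7 of 27 and 53 of 96 inhibitory neurons.

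**Figure D3:**
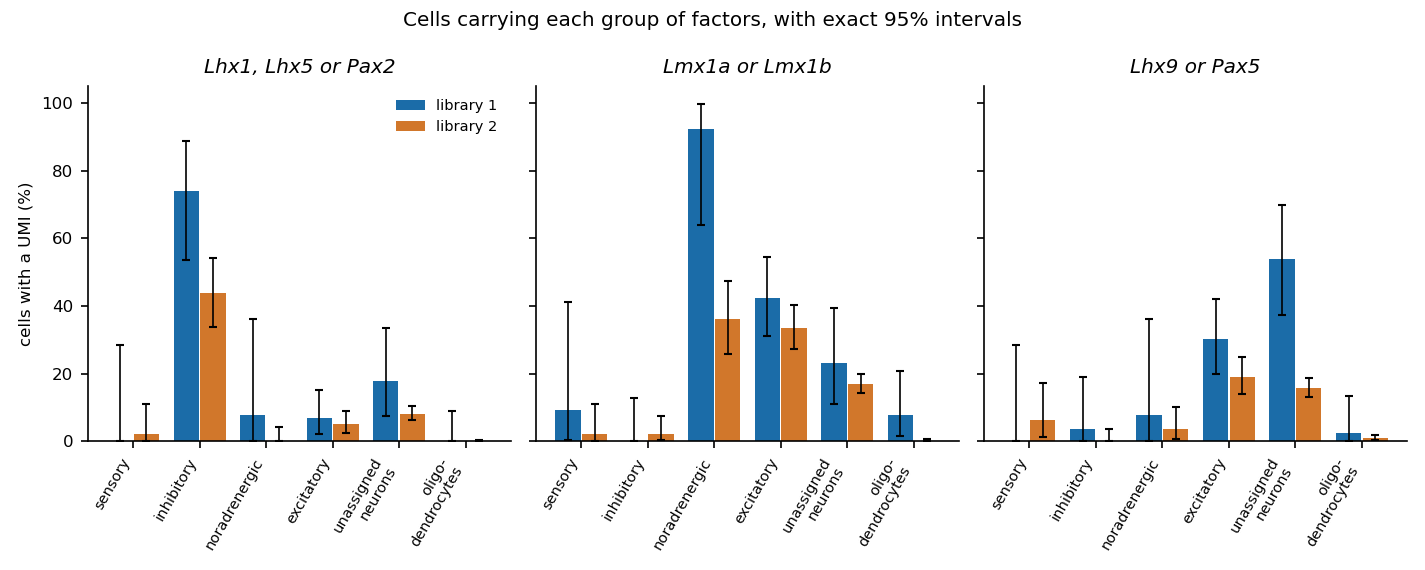
Share of cells with at least 1 UMI of each set of factors (percent, bars from 0) in 6 cell classes and both libraries, with exact 95% intervals. Inhibitory neurons stand at 74.1% and 43.8% for Lhx1, Lhx5 or Pax2, excitatory neurons at 42.5% and 33.5% for Lmx1a or Lmx1b, and oligodendrocytes at 7.69% or less for every set.

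Thinning lowered every such share. With each cell thinned to 1000 UMIs, Lmx1b was found in 11 of 73 and 24 of 212 excitatory neurons (15.1% and 11.3%), against 27 of 73 and 55 of 215 (37.0% and 25.6%) at full depth. At 1000 UMIs Pax5 was found in 9.59% and 6.60% of excitatory neurons, against 15.1% and 14.4% at full depth. Lhx5 was found in 3.70% and 6.32% of inhibitory and 1.37% and 1.89% of excitatory neurons at 1000 UMIs, against 51.9% and 20.8% and 6.85% and 2.79% at full depth. A share of cells without a UMI is therefore no measure of cells that lack the gene.

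The commonest combinations of excitatory neurons were Lmx1b as the sole factor (11 and 30 cells), Lmx1a with Lmx1b (10 and 17), Lmx1a as the sole factor (4 and 16), Lhx9 as the sole factor (9 and 10), Pax5 as the sole factor (1 and 18) and Lhx9 with Pax5 (6 and 4). Inhibitory neurons held Lhx5 as the sole factor in 6 and 11 cells, Lhx1 in 2 and 10, Pax2 in 2 and 10, and Lhx1 with Lhx5 in 1 and 8. All 3 inhibitory factors together occurred in 3 and 0 cells. Sensory neurons held Isl1 as the sole factor in 10 and 22 cells. Among noradrenergic neurons Lmx1b was the sole factor in 9 and 28.

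Whether 2 factors met in the same cells was described by the number of cells with UMIs of both, beside the number expected if they were independent within each class and library, summed over inhibitory, excitatory and unassigned neurons (139 and 994 cells). Lmx1a and Lmx1b met in 68 cells, 24.6 expected, a ratio of 2.76 (2.17 in library 1 and 3.01 in library 2). Lhx9 and Pax5 met in 24, 12.1 expected (ratios 1.81 and 2.26). Lhx1 and Lhx5 met in 19, 10.2 expected (1.59 and 2.12). In inhibitory neurons alone they met in 5 cells of library 1, 4.67 expected, and 9 of library 2, 4.375 expected. Cells of 1 library share their source and deeper cells show more of every gene, so each cell was also thinned to 2000 UMIs (139 and 557 cells). The ratio for Lmx1a and Lmx1b was then 1.44 (13 cells, 9.03 expected), and in excitatory neurons alone 1.05 (5 cells, 4.75 expected). Lhx9 and Pax5 stood at 2.75 (6 cells, 2.18 expected) and Lhx1 and Lhx5 at 2.80 (6 cells, 2.14 expected), which are few cells. All 6 cells with Lhx1 and Lhx5 were in library 2.

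Lhx9 met either Lmx1 gene less often than the expected count, and Pax5 about as often. Lhx9 met Lmx1a in 1 cell where 9.51 were expected, and in no excitatory neuron where 6.67 were expected. After thinning, Lhx9 met Lmx1a in 1 cell, 1.75 expected, which is too few to read. It met Lmx1b in 3 cells, 14.3 expected (ratios 0.247 and 0.160), and after thinning in 0, 2.52 expected. Pax5 met Lmx1b in 25 cells, 27.1 expected (ratio 0.923), and Lmx1a in 19, 18.1 expected (ratio 1.05, and 0.525 after thinning). Pax2 and Lhx5 met in 8 cells, 8.52 expected, all of them in library 1, where 5.49 were expected; library 2 had 0, with 3.03 expected.

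**Figure D4:**
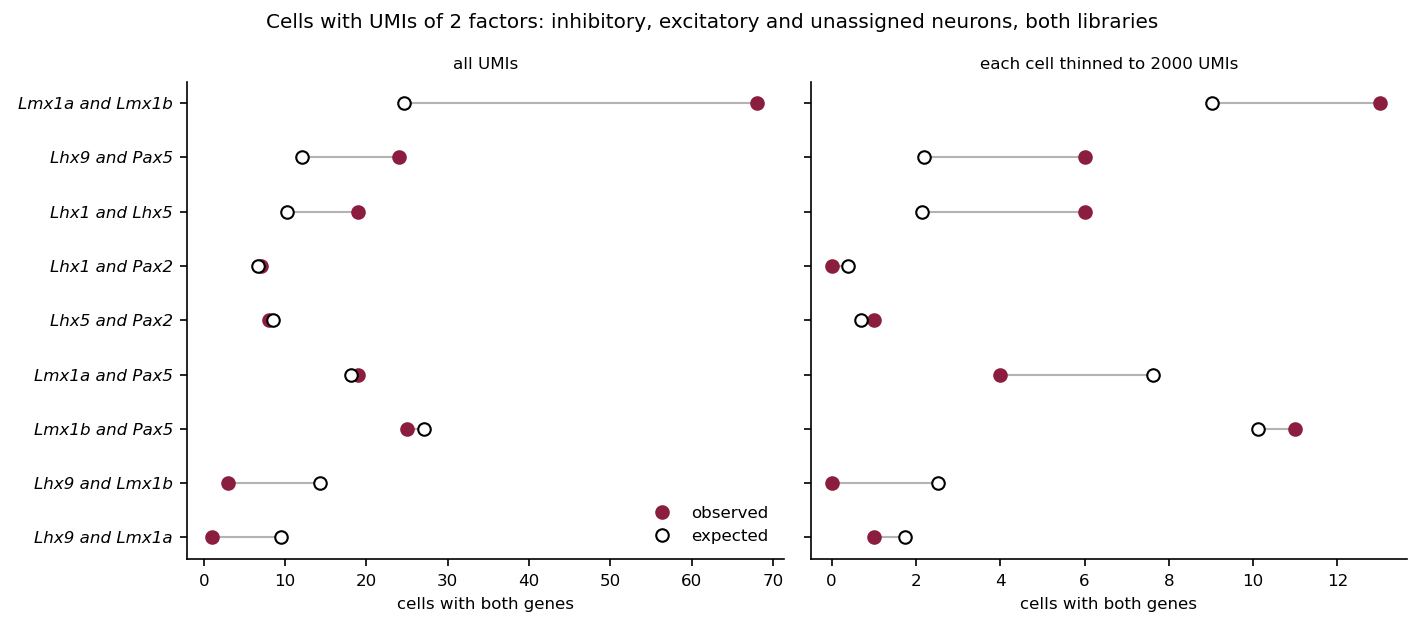
Cells with UMIs of both factors of a pair (filled, observed) and the number expected from independence within class and library (open), over inhibitory, excitatory and unassigned neurons of both libraries, at full depth on the left and thinned to 2000 UMIs per cell on the right (linear axes of different range). Lmx1a with Lmx1b lies at 68 against 24.6 expected on the left and 13 against 9.03 on the right. Lhx9 with Lmx1a lies at 1 against 9.51 on the left and 1 against 1.75 on the right, where the cells are too few to read.

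Some of the factors were also found in cell classes that entered no test. Lmx1b stood at 64.5 and 61.0 CPM (17 and 7 UMIs) in ependymal cells, the ciliated lining of the ventricle, in 8 of 17 and 7 of 54 cells. Among the granule-gate cells (29 and 14), Lhx1 stood at 107 and 57.9 CPM (21 and 1 UMIs) and Lmx1a at 122 and 290 CPM (24 and 5 UMIs). No granule-gate cell carried both. The 10 cells of library 1 with Lhx1 all carried Gabra6, the receptor subunit gene typical of mature cerebellar granule cells. The 4 and 3 cells with Lmx1a had no Gabra6 UMI. Of these, 4 and 2 cells carried Neurod1, 4 and 2 Fat2, 1 and 3 Cbln1 and 0 and 1 Cbln3. Their granule name rests on those markers of the gate. Of the Lmx1a UMIs of the gate, 1 cell gave 12 of 24 in library 1.

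The order of the classes by level placed granule-gate cells first for Lhx1 and Lmx1a, inhibitory neurons first for Lhx5 and Pax2, excitatory neurons first for Lmx1b, unassigned neurons first for Lhx9 and Pax5, and sensory neurons first for Isl1. For Lhx1 the granule-gate and inhibitory levels overlapped (107 and 57.9 against 22.3 and 81.3 CPM). For Lmx1b the noradrenergic, unassigned and ependymal levels overlapped one another. Pax8 was highest in ependymal cells at 3.79 and 8.71 CPM, 1 UMI per library, and overlapped its level in astrocytes (0 and 6.69 CPM).

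Across 22 points (11 classes in 2 libraries, which share library and depth), the genes most like each factor were ranked by Pearson's r of log2(CPM + 10) among 13046 genes. Lhx5 and Pax2 were each other's first match (r = 0.95), and Lhx9 and Pax5 were each other's second and first (r = 0.91). A830012C17Rik came first for Lhx9 (r = 0.93) and second for Pax5 (r = 0.91). Pnoc, the gene of the peptide nociceptin, came second for Pax2 (r = 0.91), and Lamp5 second for Lhx5 (r = 0.93). Crhr1, a receptor for corticotropin-releasing hormone, came first for Lmx1a (r = 0.93), Tmie for Lmx1b (r = 0.91), Xkr7 for Lhx1 (r = 0.87) and Atp6ap1l for Isl1 (r = 0.98). Pax8 was too scarce to rank.

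Among 16 further LIM genes and cofactors of LIM factors, 10 were tested. Ldb2, a cofactor that binds LIM domains, was lower in all 4 class comparisons. It stood at 1.37 and 14.1 CPM in sensory, 80.4 and 34.8 in inhibitory, 12.01 and 24.1 in noradrenergic and 181 and 206 in excitatory neurons. Its log2 fold against excitatory neurons was -4.71 ± 0.45 in sensory, -1.66 ± 0.34 in inhibitory and -3.53 ± 0.37 in noradrenergic neurons (adjusted p = 7.76e-08, 0.0115 and 4.40e-07). These 3 comparisons share the excitatory sums. In sensory against inhibitory neurons its log2 fold was -3.05 (adjusted p = 0.000435). Isl2, the close relative of Isl1, gave 15 and 11 UMIs in sensory neurons and none in excitatory or inhibitory ones, at least 16.3-fold higher than in excitatory neurons (adjusted p = 0.000245) and at least 5.03-fold higher than in inhibitory neurons (adjusted p = 0.00816). Lmo1, another LIM-only gene, stood at 23.4 and 17.3 CPM in sensory neurons, against 3.69 and 7.47 CPM in excitatory neurons (log2 fold 1.92 ± 0.57, adjusted p = 0.0107). Rlim, a ubiquitin ligase that acts on LIM cofactors, stood at 74.2 and 58.1 CPM in sensory neurons, against 29.0 and 31.9 CPM in inhibitory neurons (log2 fold 1.09 ± 0.32, adjusted p = 0.0129). The LIM-only gene Lmo3 was 2.72-fold higher in noradrenergic neurons (160 and 159 CPM) than in excitatory neurons (60.9 and 50.1 CPM; adjusted p = 0.000262). Against the same excitatory level, Lmo3 was lower in sensory (0 and 7.86 CPM) and inhibitory neurons (13.4 and 11.6 CPM), with adjusted p of 5.08e-06 and 0.0187. Ssbp2, a partner of Ldb cofactors, stood at 108 and 82.3 CPM in noradrenergic neurons, against 235 and 253 CPM in excitatory neurons (log2 fold -1.43 ± 0.22, adjusted p = 6.09e-05). Counts called higher and lower in this list were 0 and 2 for inhibitory, 3 and 2 for sensory and 1 and 2 for noradrenergic against excitatory neurons, and 4 and 1 for sensory against inhibitory neurons. Over all genes tested, 1.75%, 37.3%, 26.6% and 31.2% were called in that order, and nothing is read from the list's share. The list's median log2 folds were -0.42, 0.06, 0.01 and 0.36 in that order, beside -0.01, -0.04, -0.01 and -0.02 over all genes tested. None of the other 6 Pax genes passed the low-count filter.

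Among 36 symbols listed for fate factors of hindbrain neurons, 35 had a row and 12 that served in no gate were tested. The symbol without a row, Drgx, names the same gene as Prrxl1, which was tested. The homeobox gene Tlx3 stood at 30.2 and 88.0 CPM in sensory neurons, against 9.84 and 12.8 in excitatory and none in inhibitory neurons (log2 fold against excitatory 2.20 ± 0.39, adjusted p = 0.000163; at least 15.1-fold higher than in inhibitory neurons, adjusted p = 1.76e-05). Noradrenergic neurons held 2 UMIs of Tlx3, 0.107 of the excitatory level (0.0124 to 0.426; adjusted p = 0.00546). Prrxl1, a homeobox gene of sensory circuits also known as Drgx, stood at 41.2 and 33.0 CPM in sensory and 3.69 and 3.20 CPM in excitatory neurons (log2 fold 3.33 ± 0.56, adjusted p = 7.54e-05), and at 14.8 times the inhibitory level (3.90 to 126; adjusted p = 0.00130). It had been meant for the sensory gate under the symbol Drgx, which matched no row, so it was not used there. Phox2a, a paired-like factor that noradrenergic neurons need, stood at 90.1 and 63.8 CPM in noradrenergic neurons, against 3.69 and 1.07 CPM in excitatory neurons (log2 fold 4.77 ± 0.44, adjusted p = 1.81e-07). Foxp2, a forkhead gene, gave 1 UMI in sensory neurons, against 60 in inhibitory neurons (adjusted p = 2.24e-06) and 171 in excitatory neurons (adjusted p = 8.80e-07). It was 16.5-fold lower in noradrenergic than in excitatory neurons (adjusted p = 3.78e-06). Tfap2b gave 3 UMIs in sensory and 34 in inhibitory neurons, a ratio of 0.0513 of the levels (0.0101 to 0.163; adjusted p = 6.53e-05). The nuclear receptor gene Nr4a2 stood at 0 and 17.4 CPM in inhibitory neurons, against 59.1 and 30.9 CPM in excitatory neurons (log2 fold -2.55 ± 0.65, adjusted p = 0.0492). Counts called higher and lower were 0 and 4 for inhibitory, 2 and 8 for sensory and 3 and 5 for noradrenergic against excitatory neurons, and 3 and 3 for sensory against inhibitory neurons. These stand beside the same 1.75%, 37.3%, 26.6% and 31.2% of all genes called. The medians were -1.08, -2.20, -0.87 and 0.01 in that order, beside the same medians over all genes as above.

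Antisense genes overlap 3 of the factors in the annotation and had few UMIs. These were 5 and 12 UMIs of Gm27199 at Lhx5, 7 and 5 of Gm12462 at Pax5 and 2 and 0 of 1700039E22Rik at Pax2.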

How the data were processed

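The deposited files hold UMI counts per gene and barcode for 2 droplet libraries, made by the authors with Cell Ranger 6.1.2 per the file headers; the submitters' processing notes name Cell Ranger 7.0, Seurat and mm10. The counts are not normalized. Barcodes needed 300 genes and no more than 20% of UMIs from mitochondrial genes, and the top Scrublet scores (0.8% per 1000 barcodes; scanpy 1.11.5) were removed. A neuron had at least 3 of 10 pan-neuronal markers and 5000 CPM of them. A class needed 2 markers and 500 CPM of its list, and the excitatory class 1 UMI and 100 CPM of Slc17a6. UMIs were summed per class and library and tested with edgeR 4.0.16 (quasi-likelihood, TMM, filterByExpr) with the library as a block, in 1 fit of the 4 classes, and separately for the glycinergic split. The threshold was an adjusted p of 0.05. DESeq2 1.42.0 was an alternative. A floor of 3 UMIs over both libraries bounds a fold against 0. The fits were tested on simulated data. Medians of 11010 and 1517 UMIs per barcode limit detection per cell.

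The block holds because both classes of a pair come from the same library. The genes and gene lists were chosen with earlier results of these data known. Named genes of a list were up to 4 per comparison, the 2 highest and 2 lowest called log2 folds, and for likeness the first by Pearson's r. 1 further gene that this rule names is not reported here. Sox2ot, the single astrocyte markers and the granule-gate markers were named after their values were seen. The looser inhibitory gate (1 marker, 100 CPM) was added after the data were seen. Coordinates are GENCODE M21 on GRCm38; promoters are RefSeq, GRCm38.p6.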

Additional observations from a re-analysis of the deposited data

Results flagged for a closer look

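Each value here is a mean over both libraries and was singled out because the signal lay in cells that no comparison used, above the oligodendrocyte level. In unassigned neurons, Pax5 averaged 156 CPM, Lmx1b 68.8, Lmx1a 49.6, Lhx9 33.2, Lhx5 15.0, Pax2 14.0 and Lhx1 10.4 CPM. In library 1 of that class, 1 cell gave 13 of 26 Lmx1b UMIs and 1 cell gave 10 of 20 Lmx1a UMIs. Slc17a6 stood at 47.6 and 1.29 CPM in the class. The excitatory gate takes out any such neuron in which 1 Slc17a6 UMI reaches 100 CPM, which shallow cells meet sooner. With medians of 11092 and 1851 UMIs per cell, these 2 values depend on the gate and are not compared. Unassigned cells with Pax2 had 259 and 432 CPM of the 4 inhibitory markers, against 36.8 and 144 CPM in those without it. Those with Lhx5 had 388 and 288 CPM, against 37.6 and 144 CPM without it. In library 1 these levels rest on 4 cells and 11 marker UMIs for Pax2 and 3 cells and 10 marker UMIs for Lhx5. Unassigned cells with Lhx1 had 30.8 and 309 CPM, against 57.2 and 146 CPM without it. The libraries went opposite ways, but the library 1 value with Lhx1 is 1 marker UMI over 3 cells. The libraries also went opposite ways for Pax5 (68.4 and 73.5 CPM with it, 43.0 and 165 CPM without). The same held for Lmx1b (79.3 and 67.6 against 46.5 and 169 CPM) and Lmx1a (99.4 and 76.4 against 49.5 and 161 CPM). In library 1 the Lmx1b value rests on 7 cells with 11 marker UMIs. The Lmx1a value there rests on 4 cells, of which 1 held all 6 marker UMIs. Cells with Lhx9 had 8.77 and 43.9 CPM (1 and 3 marker UMIs), against 69.1 and 156 CPM without it. Lmx1a averaged 206 CPM in granule-gate cells, on 24 and 5 UMIs. Lmx1b averaged 62.7 CPM in ependymal cells. Causes were not tested.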

How the results depend on the processing

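Of 19 called folds of the factors, 6 lost the call under an alternative in which they were tested. All 6 lost it with DESeq2, and Pax5 in inhibitory against excitatory neurons also with the looser inhibitory gate. The cause was not tested. Not every fold could be followed in every setting. Of 28 folds followed, called or not, only 3 were tested after thinning to at most 2000 UMIs and 25 with stricter gates, with no call changed. Folds not tested in a setting count as neither kept nor lost, so most calls were not checked against thinning. The log2 fold reversed for Pax5 in sensory against inhibitory neurons with that gate (-2.16) and, from -0.05, for Lhx5 in the glycinergic split without doublet removal (0.024) and with the looser gate (0.048). Calls were gained for Lhx9 in inhibitory, Lhx5 in sensory and Lmx1b in noradrenergic against excitatory neurons, in 6 combinations of fold and setting. Without 1 library no residual degrees of freedom are left for a test, and the value is that library's difference of log2 CPM with a prior count of 2 UMIs, which pulls folds of scarce genes towards 0 and is another measure than the fitted fold; for Lhx5 in inhibitory against excitatory neurons it was 2.50 to 2.91 (fitted 3.23), and for Isl1 in sensory against excitatory neurons 4.67 to 5.17 (fitted 7.67). For inhibitory against excitatory neurons, 165 genes were called; the count was 101 with the looser gate, 63 after thinning (3435 genes tested), 325 without a low-count filter, 87 without the replicate block, 73 with DESeq2 and 466 with the 2 classes alone. After thinning and with DESeq2 the counts were 793 and 2212 for sensory against excitatory (3524), 626 and 1894 for sensory against inhibitory (2951) and 619 and 1146 for noradrenergic against excitatory neurons (2513). For the glycinergic split (2) they were 0 with stricter gates, 0 without doublet removal, 7 with the looser gate, 39 without a filter and 1 with DESeq2. Removing the replicate block changed no call of a factor. Depth limits every share of cells, and counts of 0 to 3 UMIs limit the folds of scarce genes.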
